A study of Rattus norvegicus with 90 samples.

Results

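The livers of 3 control dams and of their fetuses, taken at gestation day 21 (GD21), were compared gene by gene. The animals were Sprague-Dawley rats, and the dams, about 90 days old at purchase, belonged to a study of oral dosing with NBP2, short for Nafion byproduct 2, a sulfonic acid of the polyfluorinated ethers. The 6 libraries were chosen by title and dose from the 90 of the series: the fetal and the maternal library of dams 2129, 2130 and 2131, all at 0 mg/kg/d in the arm dosed from GD17 to GD21. Each fetal library was compared with that of its own dam, and 9466 of the 20833 genes listed passed a filter on low counts and were tested. Both groups share the strain, the 0 mg/kg/d dosing and study block 144, and were killed 2 to 4 h after the last dose. The titles give the age as GD21, while the age entry gives 20, and the name of the titles is kept here. The labels do not state how many fetuses went into a fetal library, their sex, or the part of the liver taken. Dosed pairs at GD21 and 12 libraries of control pairs at GD18, also at 0 mg/kg/d, are used further below where named.

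The liver of the late rat fetus is both a blood-forming organ and an organ preparing for birth. Its hepatocytes divide, secrete alpha-fetoprotein and live on glucose and amino acids from the placenta, while red cell, granulocyte and platelet precursors mature between them. The adult liver no longer makes blood, and its resting hepatocytes make plasma proteins, clear drugs and hormones, form urea and bile, and release glucose. In the pregnant dam that program also serves the placenta and the fetus.

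The assay, TempO-Seq, ligates pairs of detector probes on each transcript and counts the ligated product, so a gene is read only where its probes bind. Per the labels, abundant transcripts were attenuated, and no level is compared here between genes. Levels are given as CPM, the counts scaled to a common library size with TMM factors, in the order of dams 2129, 2130 and 2131. Summed markers are the exception and are scaled to total counts alone, without TMM factors. A fold change is the log2 of fetal over maternal with its standard error, from edgeR's quasi-likelihood test with dam as a block. A gene was called at a Benjamini-Hochberg adjusted p under 0.05 over all genes tested.

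Total counts ran from 5096139.8 to 6998829.4 per library. Haemoglobin genes took 18.2%, 14.7% and 4.30% of the counts of the fetal libraries and at most 0.170% in the dams. The fetal library of dam 2129 stood apart in another way: olfactory, vomeronasal and taste receptor genes made 384.6 CPM of its unscaled counts against 22.0 to 27.3 in the other libraries, and 17789 genes had a count against 12261 to 13704. The same library held 338.0 CPM of the 6 listed genes on the Y chromosome, against 0.16 to 1.88 in the other 5. The part of these differences in the results was not tested. Without dam 2129 and its fetus, 3850 genes were called in place of the 4641 found with all 3 pairs.

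Of the 9466 genes tested, 4641 (49%) differed between fetal and maternal liver. The fetal liver was higher for 2474 genes (26.1%) and the maternal liver for 2167 (22.9%), and the median log2 fold change over all genes was 0.08. With scaling to total counts alone, without TMM factors, that median was 0.55 and the split moved to 3809 fetal higher and 1372 maternal higher. All 3 fetal libraries lay above all 3 maternal ones for 3017 genes (31.9%), and all 3 maternal above all fetal for 2564 (27.1%). A difference of more than 2-fold, tested directly, was called for 1270 genes (13.4%) higher in the fetus and 1050 (11.1%) higher in the dam. Every count of a gene group at GD21 below is to be read against these shares.

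The genes with the widest separation show what kinds of transcripts set the livers apart. Among the 12 with the largest fold change toward the fetus, several are genes of granulocytes: the defensin genes Defa11, Defa5 and RatNP-3b, the protease gene Ctsg (cathepsin G), and Ms4a3, a marker of granulocyte precursors. Defa11 read 240.2, 126 and 171 CPM in the fetal livers and had no count in any dam, which is at least 873-fold higher against a floor of 3 counts over the maternal group. RatNP-3b read 914, 766 and 481 CPM in the fetal livers and had 3 counts in all in the dams, a ratio of 3563 with a 95% counting interval of 1219 to 17281. The others were the mitotic kinesins Kif23 and Kif4a, the blood group gene Rhd, the histamine-forming enzyme Hdc, the cystatin-like Stfa3, the hypoxia-inducible factor subunit Hif3a and Tnni1, the slow skeletal troponin I. Hif3a read 134, 128 and 148 CPM in the fetal livers and 0 in the dams, at least 669.6-fold higher. Tnni1 read 539, 943 and 464 CPM against 3 counts in all in the dams, a ratio of 3258 (1114 to 15798).

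The 12 widest on the maternal side held 3 cytochromes P450, Cyp2c7, Cyp2c12 and Cyp2c6v1, the tryptophan-degrading enzyme Tdo2, the lipogenic regulator Thrsp, the serine protease inhibitor Serpina3m, the plasma protein gene A1bg and Hsd17b6, a steroid dehydrogenase. The remaining 4 were Rup2, RGD1307603, LOC103689968 and the unnamed model AABR07058124.2. Cyp2c7 read 6.23, 4.69 and 4.38 CPM in the fetal livers and 15553, 11268 and 16979.6 in the dams. The groups lay far apart, with a log2 fold change of −11.47 ± 0.45 (adjusted p 6.64e-07). Serpina3m had 3 counts over all fetal libraries and 775, 612 and 721 CPM in the dams, a ratio of 5224 (1787 to 25336). Hsd17b6 had no count in any fetal library and 47.1, 48.9 and 27.0 CPM in the dams, at least 302-fold lower in the fetus. In bulk tissue, fewer cells of a type and less RNA per cell cannot be told apart, here or in what follows.

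Genes known from fetal liver and liver tumours were higher in the fetus throughout their called members. Of 17 tested, 14 were higher in fetal liver and none lower, with a median log2 fold change of 4.90, or 4.67 with genes absent in the dams set to their bound. Afp, the main plasma protein of the fetus, read 21310.4, 20632 and 7931 CPM in fetal and 21.5, 24.4 and 22.2 in maternal liver. The fetal liver of dam 2131 read lowest of the 3 and still lay far above every dam. The log2 fold change was 9.39 ± 0.49 (adjusted p 7.6e-07). Dlk1, an imprinted Notch ligand relative carried by hepatoblasts, read 463, 372 and 509 against 0.462, 0.591 and 0.372 CPM, and Gpc3, a cell-surface proteoglycan of the embryo, 127, 116 and 165 against 1.16, 0.197 and 0.931. Both groups of values stayed apart in every library, with log2 fold changes of 9.81 ± 0.41 and 7.50 ± 0.40. The 3 members not called were Epcam, Peg3 and Mest, named here because they complete the list.

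**Figure D1:**
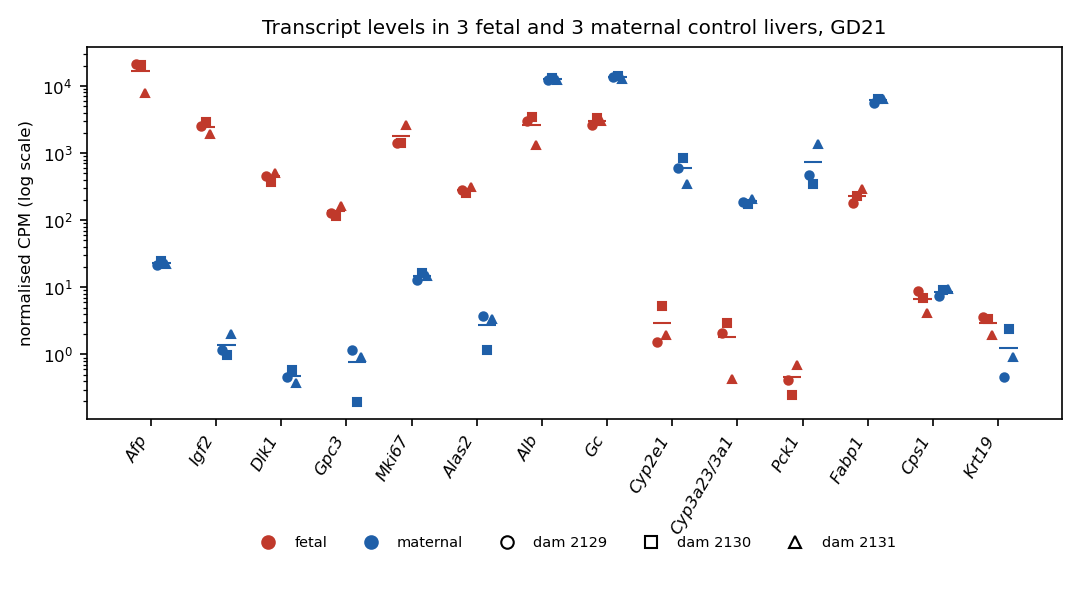
Normalised CPM on a log axis for 14 genes with a count in all 6 libraries, red for fetal and blue for maternal liver, one marker shape per dam and a bar at each group's mean. Afp, Igf2, Dlk1, Gpc3, Mki67 and Alas2 are higher in every fetal library, the genes from Alb to Fabp1 higher in every dam, and the groups of Cps1 and Krt19 overlap.

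The insulin-like growth factors changed places. Igf2, the growth factor of fetal life, read 2550.4, 2927 and 1894 CPM in fetal and 1.16, 0.985 and 2.05 in maternal liver, a log2 fold change of 10.73 ± 0.48 (adjusted p 6.64e-07). Igf1, which growth hormone induces in adult liver, read 0, 0.247 and 0.283 CPM in fetal and 10.9, 11.2 and 12.3 in maternal liver (−5.87 ± 0.57, adjusted p 2.95e-05). No library of either group overlapped the other for these genes. Of 24 tested genes of the growth hormone and IGF axis, 6 were higher in the fetus and 12 in the dam (median −0.93). Prlr, the prolactin receptor, was among the 12, with 9.42, 13.8 and 3.96 CPM in fetal and 3984, 2754 and 3492 in maternal liver (−8.67 ± 0.52). Of 14 imprinted growth genes tested, 9 were higher in the fetus and 2 in the dam (median 3.18), one of the latter Slc38a4, an amino acid transporter, at 19.7, 29.7 and 14.4 against 396, 402 and 352 CPM (−4.23 ± 0.30). The fetal liver genes and imprinted genes share several members, Igf2 and Dlk1 among them.

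Genes of dividing cells were higher in the fetus. All 30 tested genes of mitosis were higher in fetal liver (26.1% of all genes tested were), with a median log2 fold change of 5.78, or 5.44 with genes at 0 in the dams set to their bound. Mki67, the proliferation antigen Ki-67, read 1431, 1436 and 2604 CPM in fetal and 12.9, 16.2 and 14.7 in maternal liver (6.91 ± 0.37, adjusted p 8.11e-07). Kif23, a motor of the dividing cell's midbody, read 77.9, 68.1 and 59.6 CPM in the fetal livers and 0 in the dams, at least 338-fold higher. Of 28 tested DNA replication genes, 27 were higher in the fetus (median 4.04). Cdc6, which loads the replicative helicase, read 45.99, 26.3 and 25.6 CPM against 0.924, 0.591 and 0 (6.04 ± 0.50), and Uhrf1, which guides DNA methylation to new strands, had 1 count in the dams and 24.5, 22.1 and 16.1 CPM in the fetal livers, a ratio of 310.0 (55.4 to 12269). Cyclins and their inhibitors followed with 13 of 17 higher in the fetus and none lower (median 1.81), Ccnd3, a D-type cyclin, at 18.8, 14.9 and 5.93 against 0.924, 0 and 0 CPM and E2f2, an E2F transcription factor, at 48.3, 42.1 and 28.8 against 1.39, 0.788 and 0.745.

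Since the genes of mitosis, of replication and of red cell precursors were each higher together, their promoters are shown here. RefSeq gives a window of 300 bases, 250 before to 50 after the gene's start, for 24 of the 30 tested mitosis genes, 24 of the 28 replication genes and 25 of the 34 erythroid genes, and for 7050 of the 9466 genes tested (build GRCr8, not the build of the count table). The cell cycle homology region, TTTGAA, was in the windows of 18 of 24 mitosis genes (75%) and 2 of 24 replication genes (8.33%), and in 12.2% of the windows of tested genes and 18.1% of all 27457 RefSeq windows, on either strand. The CCAAT box was in 79.2% of mitosis and 70.8% of replication windows, against 38.9% of tested and 37.7% of all. The E2F motif TTTGGCGC was in 7 of 24 replication windows (29.2%) and in 0 of 24 mitosis windows, against 1.04% of tested and 0.521% of all. A second form, TTTCCCGC, was in 3 of 24 replication windows (12.5%), in 0 of 24 mitosis windows and in 1.03% of all. The GATA motif AGATAA was in 9 of 25 erythroid windows (36%), against 6.18% of tested and 11.3% of all, while CCACACCC, bound by KLF factors, was in 2 of 25 (8%) against 3.23% of all. In 26 windows of cytochromes P450, a list mostly higher in the dam, TTTGAA was in 8 (30.8%) and AGATAA in 5 (19.2%). In 13 windows of plasma carriers each of these motifs was in 1 (7.69%). In 8 windows of haemoglobin genes TTTGAA was in 2 (25%), the CCAAT box in 7 (87.5%) and AGATAA in 0. The 150 bases before the start of 6 genes, picked after their values were seen, are printed 5′ to 3′ on the gene's strand with matches on either strand in capitals. Cdk1, the mitotic kinase, and Kif23 carry the cell cycle homology region and the CCAAT box, which on the other strand reads ATTGG. Mcm6, part of the replicative helicase, carries the first E2F motif and the CCAAT box, and Tyms, thymidylate synthase, that E2F motif. Alas2, the erythroid enzyme that starts haem synthesis, and Epor, the erythropoietin receptor, carry the GATA motif, which reads TTATCT on the other strand. No motif printed in capitals overlaps another.
Cdk1, chr20:19265143-19265292, plus strand: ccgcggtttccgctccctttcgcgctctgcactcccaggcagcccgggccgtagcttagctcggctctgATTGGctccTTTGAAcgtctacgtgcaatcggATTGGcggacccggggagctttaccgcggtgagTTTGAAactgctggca
Kif23, chr8:71320585-71320734, minus strand: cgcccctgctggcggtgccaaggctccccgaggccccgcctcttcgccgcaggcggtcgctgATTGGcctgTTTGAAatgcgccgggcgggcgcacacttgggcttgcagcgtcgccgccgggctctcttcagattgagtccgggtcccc
Mcm6, chr13:42404353-42404502, minus strand: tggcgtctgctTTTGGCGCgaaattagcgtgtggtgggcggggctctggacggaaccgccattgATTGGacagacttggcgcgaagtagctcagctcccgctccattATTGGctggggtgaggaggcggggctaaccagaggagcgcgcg
Tyms, chr9:120776084-120776233, minus strand: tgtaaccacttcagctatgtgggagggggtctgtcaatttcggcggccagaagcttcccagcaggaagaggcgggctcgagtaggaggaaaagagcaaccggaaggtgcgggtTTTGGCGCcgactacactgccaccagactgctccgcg
Alas2, chrX:22895300-22895449, plus strand: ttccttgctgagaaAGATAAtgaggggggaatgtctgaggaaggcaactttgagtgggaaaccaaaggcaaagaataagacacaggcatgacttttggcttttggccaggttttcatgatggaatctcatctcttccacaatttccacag
Epor, chr8:28770323-28770472, minus strand: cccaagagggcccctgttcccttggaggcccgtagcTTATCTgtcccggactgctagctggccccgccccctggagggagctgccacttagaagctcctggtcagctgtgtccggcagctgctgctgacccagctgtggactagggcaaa
Their log2 fold changes were 4.69 for Cdk1, 4.83 for Mcm6, 1.68 for Tyms, 6.74 for Alas2 and 5.63 for Epor, and Kif23 had no count in the dams. A match is a stretch of letters and says nothing of binding in these livers.

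Markers of the blood-forming tissue were the other large block of fetal genes. Of 34 tested erythroid genes, 33 were higher in fetal liver and none lower, with a median of 7.73 (7.24 with genes at 0 in the dams set to their bound). Alas2 read 279, 251 and 316 CPM in fetal and 3.70, 1.18 and 3.35 in maternal liver (6.74 ± 0.38, adjusted p 1.08e-06). Slc25a37, the mitochondrial iron importer of red cell precursors, read 143, 148 and 88.7 against 1.16, 1.18 and 0.745 CPM (6.91 ± 0.32), and Tal1, a transcription factor of blood stem and red cells, 264, 246 and 264 against 1.85, 3.15 and 2.23. The summed CPM of the 36 erythroid markers in the file was 13275 to 15845 in fetal and 404.2 to 484.0 in maternal liver, and Gata1, Rhd, Trim58, Nfe2 and Icam4 had no count in any dam. The fetal sums thus lay close together, while haemoglobin itself did not. Hbb, a beta-globin gene, read 94115, 70117 and 23593 CPM in the fetal livers, lowest in that of dam 2131, and 885, 316 and 378 in the dams. All 10 tested haemoglobin genes were higher in the fetus (median 6.34), the embryonic Hbe1 at 235, 160.2 and 214 against 0.462, 1.18 and 0.559 CPM (8.03 ± 0.42). Counts of haemoglobin genes are divided between near copies, and the values of single copies are uncertain.

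Myeloid, platelet and mast cell genes lay on the same side. Of 19 tested granulocyte genes 18 were higher in the fetus and none lower (median 6.34, or 5.53 with bounds), and 13 of the 29 markers in the file, Elane, Prtn3 and Mpo among them, had no count in any dam. Ctsg read 87.1, 49.2 and 20.9 CPM in the fetal livers and 0 in the dams, at least 259-fold higher. The summed granulocyte markers read 2316 to 3795 CPM in fetal and 46.3 to 93.0 in maternal liver. Hdc, which mast cells and basophils use to make histamine, read 2035, 2268 and 1781 against 0.231, 0.985 and 1.12 CPM (11.29 ± 0.50, adjusted p 6.64e-07), and 5 of 7 tested genes of that list were higher in the fetus. Of 12 platelet and megakaryocyte genes 10 were higher, with Pf4, platelet factor 4, at 1282, 1185 and 1007 against 33.3, 33.3 and 27.7 CPM (5.20 ± 0.29). Stem and progenitor genes gave 8 higher and 2 lower of 12 tested: Myb read 19.9, 15.9 and 15.8 CPM with 2 counts in the dams (ratio 127, 34.9 to 1052), and Runx1 5.13, 4.69 and 2.97 against 9.94, 8.47 and 7.26 CPM (−1.02 ± 0.33, adjusted p 0.0259, and 0.18 with scaling to total counts, 0.0781 without dam 2129 and 0.105 without dam 2130). Of 16 B cell genes in the file 5 were tested, and 3 of these were higher in the fetus. Of 20 T and NK cell genes in the file 18 did not pass the filter, and the 2 tested were higher in the dam. One was Cd4, which macrophages of the rat also carry, at 6.65, 10.99 and 11.7 against 40.2, 61.3 and 39.5 CPM.

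**Figure D2:**
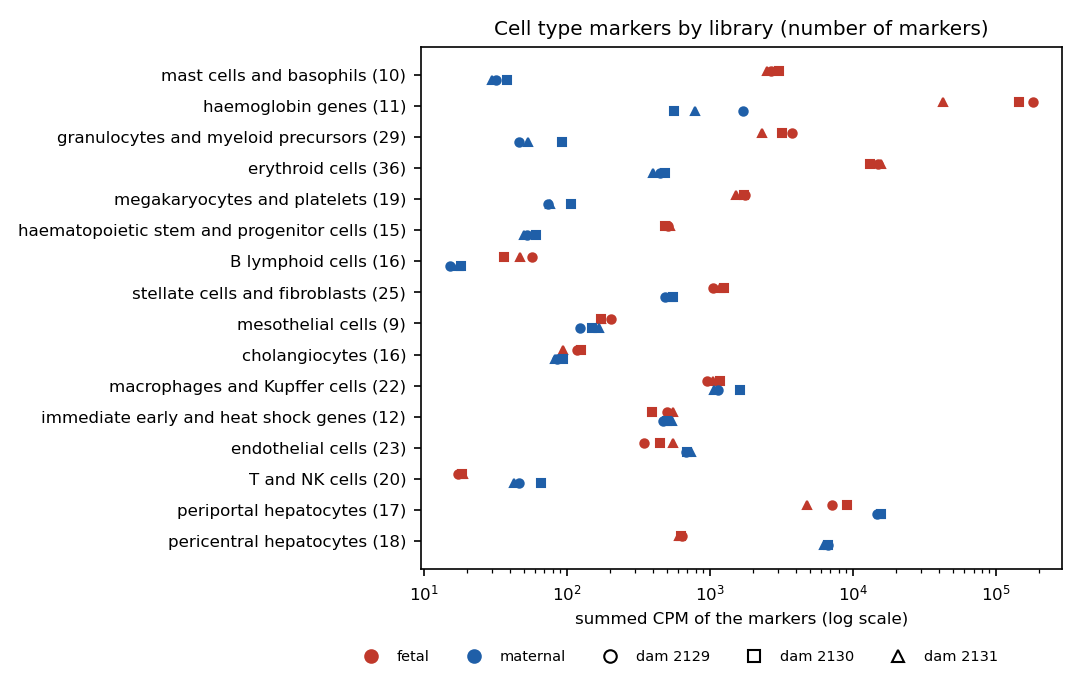
Summed unscaled CPM on a log axis of the markers of 16 cell types, with the number of markers in the file in brackets, for each fetal (red) and maternal (blue) library. Blood-forming lineages are higher in every fetal library, and the pericentral and periportal hepatocyte markers higher in every dam. The macrophage sums overlap on this scale, which leaves out TMM factors. Hdc makes up most of the mast cell and basophil sum in each fetal library.

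Genes of the resident cells of the liver were called in both directions. Of 18 macrophage and Kupffer cell genes, 10 were higher in the dam and 1, Lyz2 (lysozyme), in the fetus (median −1.07). Without TMM factors the summed markers read 954.1 to 1173 CPM in fetal and 1066 to 1619 in maternal liver. The TMM factors were 1.16 to 1.21 in the fetal and 0.834 to 0.863 in the maternal libraries. Scaling by them would lower the fetal sums and raise the maternal ones, so the overlap holds for the unscaled sums only. Vsig4, a complement receptor of Kupffer cells, read 0.97, 0.987 and 0.706 against 16.2, 17.5 and 12.5 CPM (−4.09 ± 0.36), and Cd163, the haemoglobin scavenger receptor, 20.9, 26.4 and 37.6 against 67.9, 90.1 and 62.2 (−1.40 ± 0.27, adjusted p 0.00195, and 0.051 without dam 2130). Of 18 endothelial genes 7 were higher in the dam and 2 in the fetus (median −0.29), led by Clec4g, a lectin of sinusoidal cells, at 3.60, 3.33 and 1.70 against 69.1, 59.7 and 50.8 CPM (−4.40 ± 0.29). Without dam 2130 the maternal count was 4. Stellate cell and fibroblast genes gave 9 of 18 higher in the fetus and 2 in the dam (median 0.82), or 5 higher without dam 2130. Postn, a matrix protein of fibroblasts, read 14.7, 22.5 and 22.6 CPM in the fetal livers and 0 in the dams, at least 98.5-fold higher. Of 7 cholangiocyte genes 1 lay in each direction, and the bile duct keratin Krt19 read 3.60, 3.33 and 1.98 against 0.462, 2.36 and 0.931 CPM with overlapping groups. Wt1 was the 1 gene called of 7 mesothelial genes, higher in the fetus and named after its value was seen.

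Markers of tissue other than liver were mostly at 0 in the dams. Cpa1, a digestive enzyme of the pancreas, read 1559.5, 930.1 and 660.1 CPM in the dams and 2.36, 2.59 and 3.67 in the fetal livers (−8.42 ± 0.46, adjusted p 9.92e-07), while Prss1, Cela1 and Pnlip, other enzymes of the pancreas, had no count in any dam. Fabp2, the intestinal fatty acid binding protein, read 122, 89.9 and 121 against 3.46, 3.83 and 15.1 CPM. Of the 31 markers of other tissues in the file, 22 had no count in any dam and 8 none in any fetal liver.

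The carriers of plasma were higher in the dam, with Afp as the reverse. Of 16 tested, 14 were higher in maternal liver (22.9% of all genes tested were), 1 in fetal liver and 1, Ttr (transthyretin), was not called (median −2.39). Alb, albumin, read 3038, 3454 and 1308 CPM in fetal and 12126, 13358 and 12331 in maternal liver (−2.39 ± 0.35, adjusted p 0.000426). Gc, the vitamin D binding protein, read 2650.0, 3287 and 3032 against 13377, 14091 and 12873 CPM (−2.17 ± 0.29), and Afm, afamin, 86.4, 87.6 and 80.3 against 2621, 1648 and 2336 (−4.67 ± 0.31). No library crossed the other group for these 3 genes, which lie near Afp on chromosome 14 (rn6, Afm at chr14:19078680-19132209, Afp at chr14:19141755-19159924, Alb at chr14:19176277-19191864 and Gc at chr14:20266891-20302582). The fetal livers thus held more Afp and less of its 3 relatives, by log2 fold changes from −2.17 for Gc to −4.67 for Afm. The promoters of Afp and Alb are printed because these neighbours differ in opposite directions, 150 bases before the start on the gene's strand with GTTAAT, part of the motif of HNF1, in capitals. That hexamer was in 4 of 13 plasma carrier windows of 300 bases (30.8%), in 4.77% of tested windows and in 7.37% of all.
Afp, chr14:17875646-17875795, minus strand: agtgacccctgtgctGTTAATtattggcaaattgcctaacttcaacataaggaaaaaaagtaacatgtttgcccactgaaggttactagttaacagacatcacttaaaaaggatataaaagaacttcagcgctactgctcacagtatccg
Alb, chr14:17906980-17907129, minus strand: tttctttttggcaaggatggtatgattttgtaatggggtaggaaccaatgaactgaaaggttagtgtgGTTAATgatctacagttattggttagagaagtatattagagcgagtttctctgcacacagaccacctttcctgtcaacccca
Serpina6, which carries corticosterone, read 149, 155 and 251 CPM in fetal and 1533, 1810.5 and 1669 in maternal liver (−3.21 ± 0.30), and Serpina7, which carries thyroxine, 8.59, 20.9 and 5.23 against 143, 349.8 and 423 (−4.76 ± 0.48).

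Secreted defence and clotting proteins were mostly maternal. Of 24 acute phase genes 17 were higher in the dam and 2 in the fetus (median −1.97). Orm1, orosomucoid, read 797, 10069 and 353 CPM in the dams and 14.5, 86.03 and 29.2 in the fetal livers (−5.45 ± 0.63), with dam 2130 far above the others, and Mug1, murinoglobulin, 22219, 12173 and 19569.7 against 53.2, 95.8 and 44.5 (−8.17 ± 0.52). The 2 exceptions were A2m, alpha-2-macroglobulin, at 544, 918 and 994 CPM in fetal and 272, 209.7 and 239.7 in maternal liver (1.73 ± 0.31), and Hamp, hepcidin, taken up below. Of 25 complement genes 20 were higher in the dam and none in the fetus (median −1.71), the terminal components C6 and C9 at 16.8, 7.16 and 13.7 against 493, 519 and 659 CPM and 8.87, 9.26 and 36.3 against 533, 1254 and 589. Of 27 coagulation genes 15 were higher in the dam and 2 in the fetus (median −1.31), with Serpind1, heparin cofactor II, at 229, 297 and 714 against 3821, 2947 and 3595 CPM (−3.24 ± 0.38). Of 13 antigen presentation genes 11 were higher in the dam and none in the fetus (median −2.38), Cd74, the invariant chain, at 10.3, 7.65 and 5.79 against 218, 181 and 249.7 CPM (−4.78 ± 0.31).

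Of 32 tested cytochromes P450, the enzymes of drug oxidation, 27 were higher in the dam and 3 in the fetus. Their median of −3.30 was the lowest of the 30 biology lists. Cyp1a2, which oxidises caffeine and aromatic amines, read 1.52, 0.247 and 0.283 CPM in fetal and 1303, 1418 and 1049 in maternal liver (−10.93 ± 0.57, adjusted p 7.6e-07). Cyp2e1, the ethanol-oxidising form, read 1.52, 5.18 and 1.98 against 590.3, 853 and 345 (−7.74 ± 0.39), and Cyp3a23/3a1, the usual target of PXR, 2.08, 2.96 and 0.424 against 184, 176 and 210.4 (−6.76 ± 0.49). Cyp2c12, a form of the female rat, read 0.277, 0.247 and 0 against 507, 569.7 and 452 CPM. The dams are female and the sex of the fetuses is not stated, so sex and age cannot be told apart for such a gene. Cyp2c6v1, Cyp2e1 and Cyp3a23/3a1 have counts that are not whole numbers and may be shared with near copies. The 3 forms higher in the fetus were Cyp4a8, at 6.79, 11.7 and 1.98 CPM with 1 count in the dams (ratio 104, 18.4 to 4142), and Cyp2s1 and Cyp2d4, named after their values were seen. Of 23 conjugating enzymes 17 were higher in the dam and none in the fetus (median −1.95), with Ugt2b10, a glucuronosyltransferase, at 9.14, 7.41 and 9.33 against 519.5, 355 and 563 CPM (−5.77 ± 0.30). Of 15 uptake and efflux transporters 12 were higher in the dam and 1, Slc22a8, named after its value was seen, in the fetus (median −2.89). Slco1a4, an importer of bile acids and drugs, read 1.39, 0.247 and 0 against 77.9, 152 and 137 CPM (−7.76 ± 0.67).

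Bile acid synthesis and its receptors followed. Of 11 tested genes 9 were higher in the dam and none in the fetus (median −1.79), Nr0b2, the small heterodimer partner that bile acids induce, at 0.416, 0.247 and 0.141 against 7.63, 11.8 and 15.5 CPM (−5.30 ± 0.53). Cyp7a1, the rate-limiting enzyme of bile acid synthesis, did not pass the filter. Among 22 nuclear receptors 10 were higher in the dam and 3 in the fetus (median −0.66). Esr1, the oestrogen receptor alpha, read 1.11, 0.37 and 0.424 against 109, 115 and 131 CPM (−7.52 ± 0.39) and Nr1i2, the xenobiotic receptor PXR, 93.1, 123 and 105 against 202, 207 and 245 (−1.03 ± 0.24, adjusted p 0.00634, but 0.0758 with scaling to total counts and 0.0504 without dam 2130). Ppara, the fatty acid receptor, was higher in the fetus at 56.4, 70.2 and 15.3 against 17.6, 14.6 and 13.4 CPM (1.41 ± 0.38, adjusted p 0.0115), although the fetal liver of dam 2131 lay within the maternal range, and without dam 2130 the adjusted p was 0.161. Thra, a thyroid hormone receptor, read 25.1, 24.2 and 9.18 against 6.93, 5.52 and 5.40 CPM (1.60 ± 0.34, adjusted p 0.00341, and 0.066 without dam 2130). Of 26 hepatocyte transcription factors 16 were higher in the dam and 1, Hlf, in the fetus (median −1.17), Tbx3, a factor of pericentral cells, at 1.80, 2.59 and 1.55 against 12.9, 11.8 and 10.99 CPM (−2.59 ± 0.35). Markers of both zones of the adult lobule were maternal: 11 of 16 periportal genes and 9 of 14 pericentral genes were higher in the dam, and none and 2 in the fetus. The summed pericentral markers read 605.9 to 636.9 CPM in fetal and 6346 to 6703 in maternal liver. Rhbg, an ammonium transporter of pericentral cells, went the other way at 13.02, 17.4 and 10.2 against 1.16, 1.18 and 1.12 CPM (3.51 ± 0.38).

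**Figure D3:**
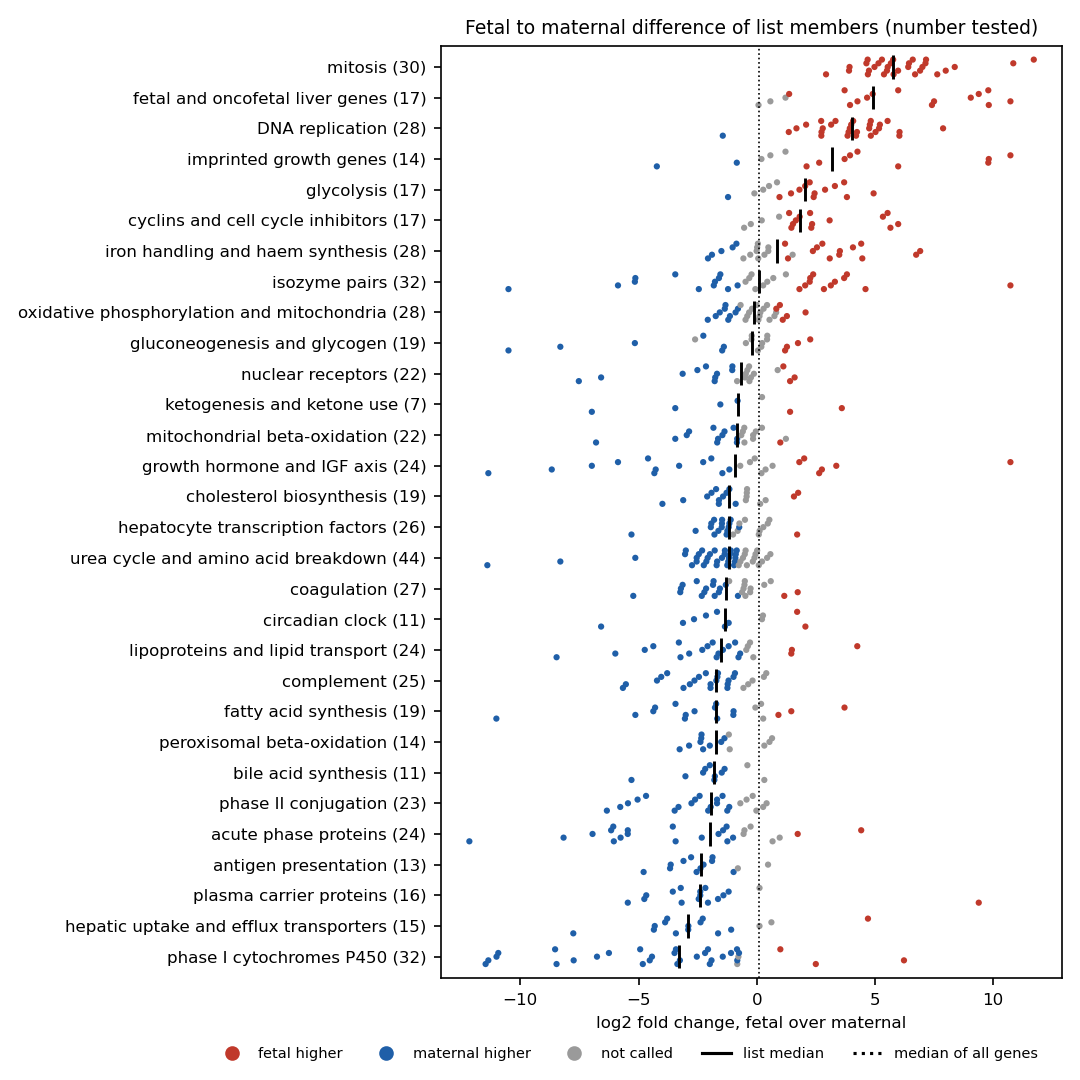
Log2 fold change, fetal over maternal, of every tested member of 30 gene lists, ordered by list median (black bar), with called genes in red (fetal higher) or blue (maternal higher), the rest in grey, and the median of all genes as a dotted line. Values of genes with no or few counts in a group are fitted and are no bound. Mitosis and fetal liver genes lie at the fetal end and cytochromes P450 at the maternal end.

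Transcripts of fuel metabolism differed in direction by pathway. Of 17 glycolysis genes 12 were higher in the fetus and 1 in the dam (median 2.05). Slc2a1, the glucose transporter of red cells and many fetal tissues, read 9.70, 11.6 and 10.2 CPM in fetal and 0.462, 1.97 and 0 in maternal liver (3.81 ± 0.64), and Hk1, a hexokinase with high affinity for glucose, 21.7, 14.6 and 30.8 against 1.85, 2.96 and 1.68 (3.31 ± 0.41). Red cell precursors also express Slc2a1 and Hk1, and their markers moved with these genes as given above; their part was not tested. Of the isozyme list, which pairs adult with fetal or ubiquitous forms, 12 of 32 were higher on each side. Asns, asparagine synthetase, was among the fetal ones at 217, 203 and 433 against 9.48, 15.6 and 8.75 CPM (4.6 ± 0.40). Ldha was the maternal exception of glycolysis at 19.8, 14.4 and 5.37 against 18.3, 36.3 and 30.5 CPM, with overlapping groups (−1.21 ± 0.44, adjusted p 0.0424, and 0.229 without dam 2130).

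Of 19 genes of gluconeogenesis and glycogen, 4 were higher in the fetus and 6 in the dam (median −0.21), near the shares of 26.1% and 22.9% over all genes tested. The fetal count was 7 with scaling to total counts and 2 without dam 2130. Pck1, the enzyme that commits carbon to glucose, read 0.416, 0.247 and 0.706 CPM in fetal and 469, 347 and 1357 in maternal liver (−10.50 ± 0.41, adjusted p 6.64e-07). Tat, tyrosine aminotransferase, read 0.554, 0 and 0 against 61.9, 64.6 and 59.03 CPM (−8.31 ± 0.59). G6pc, which frees glucose from the cell, read 6.10, 11.5 and 0 against 36.7, 11.8 and 42.3 and was not called (adjusted p 0.0516), though leaving out dam 2129, 2130 or 2131 gave 1.86e-06, 0.0245 and 0.00182. Gys2, liver glycogen synthase, was higher in the fetus at 29.4, 36.2 and 35.2 against 6.93, 7.68 and 6.33 CPM (2.26 ± 0.27, adjusted p 0.0001). Of 44 genes of urea formation and amino acid breakdown, 30 were higher in the dam and none in the fetus (median −1.19). Tdo2 read 1.11, 0.247 and 0.141 against 1469.9, 1298 and 1115 CPM (−11.39 ± 0.53), Mat1a, the methionine adenosyltransferase of adult liver, 291, 418 and 276 against 1744, 1717 and 1825 (−2.45 ± 0.28), while Cps1, the first enzyme of the urea cycle, read 8.87, 7.04 and 4.10 against 7.40, 9.06 and 9.31 and was not called (adjusted p 0.359), its fold change turning from −0.42 to 0.0525 with scaling to total counts.

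Lipid genes were mostly maternal. In fatty acid synthesis 13 of 19 were higher in the dam and 3 in the fetus (median −1.72). Thrsp read 0.554, 0.617 and 0.706 CPM in fetal and 1099, 1609 and 1299 in maternal liver (−11.01 ± 0.41, adjusted p 6.64e-07). Scd2, a stearoyl-CoA desaturase of growing tissues, read 673, 824 and 632 against 411, 37.2 and 13.6 CPM (3.71 ± 0.87, adjusted p 0.00608), with dam 2129 far above the other dams, and lost its call without dam 2130 (adjusted p 0.098). In cholesterol synthesis 11 of 19 were higher in the dam and 2 in the fetus (median −1.16), or 4 without dam 2130. Nsdhl, a sterol dehydrogenase, read 27.8, 33.6 and 70.1 against 344, 374 and 327 CPM (−3.11 ± 0.34). Of 24 lipoprotein and lipid transport genes 17 were higher in the dam and 3 in the fetus (median −1.52), Apoa5 at 0.416, 0.37 and 0.141 against 115, 124 and 110.2 CPM (−8.47 ± 0.37). Fabp1, which binds fatty acids in hepatocytes and gut, read 181, 227 and 292 against 5656, 6289 and 6379 CPM (−4.74 ± 0.32). Lpl, lipoprotein lipase, which adult liver makes little of, was higher in the fetus at 218, 237 and 321 against 9.48, 12.4 and 19.9 CPM (4.25 ± 0.28).

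Fatty acid oxidation leaned toward the dam: 12 of 22 mitochondrial genes and 9 of 14 peroxisomal genes were higher there, and 1 and none in the fetus (medians −0.83 and −1.74). Cpt1a, which admits fatty acids to mitochondria, read 2.91, 5.43 and 2.68 CPM in fetal and 37.4, 25.6 and 63.5 in maternal liver (−3.45 ± 0.43), and Ehhadh, a peroxisomal bifunctional enzyme, 11.6, 13.8 and 6.92 against 38.8, 49.7 and 78.8 (−2.34 ± 0.36). Acot1, a thioesterase induced through PPAR-alpha, read 1.94, 1.36 and 1.98 in fetal liver and 0, 0 and 7.45 in the dams, 1 of which alone held counts, and was not called. Among 7 genes of ketone bodies 4 were higher in the dam and 2 in the fetus: Fgf21, a hormone of fasting, had 1 count over the fetal livers and 3.93, 7.09 and 13.97 CPM in the dams (ratio 194, 34.2 to 7725), and Oxct1, which lets tissues burn ketone bodies and which adult hepatocytes are known to lack, read 19.4, 15.2 and 15.3 against 0.924, 1.38 and 1.68 CPM (3.60 ± 0.37). Oxidative phosphorylation was even, with 5 of 28 genes higher in the fetus and 9 in the dam (median −0.10). With scaling to total counts those counts were 10 and 5, and without dam 2130 the maternal count was 4. Cs, citrate synthase, read 52.9, 50.4 and 15.4 against 7.63, 9.26 and 8.19 CPM (2.06 ± 0.37) and Ndufa1, a subunit of complex I, 68.02, 87.9 and 84.8 against 306, 348 and 354 (−2.07 ± 0.25).

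Iron genes had 13 of 28 members higher in the fetus and 5 in the dam (median 0.84), several of them also erythroid. Tf, transferrin, read 15.7, 26.7 and 27.98 CPM in fetal and 96.6, 85.7 and 105 in maternal liver (−2.06 ± 0.26). Hamp, the hormone that blocks iron export, read 94.3, 64.8 and 8.05 CPM in fetal and 12.5, 0.394 and 0 in maternal liver (4.42 ± 0.67, adjusted p 0.000503). Each fetal liver lay above its own dam, but the groups overlapped, since dam 2129 lay above the fetal liver of dam 2131. Among 11 clock genes 7 were higher in the dam and 2 in the fetus (median −1.35), with Per2, a period gene, at 39.1, 33.7 and 16.2 against 9.48, 8.28 and 3.72 CPM (2.06 ± 0.27). Of 10 immediate early and heat shock genes 2 were called in each direction, Egr1, an early response factor, at 7.90, 11.8 and 46.8 against 269, 359.6 and 394 CPM (−4.35 ± 0.44).

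The direction was also read in pairs that the main fit at GD21 did not use. In the 12 dam and fetus pairs of the dosed GD21 groups, 55 of the 59 named genes that were higher in fetal control liver were higher in the fetus in every pair, and 75 of the 81 higher in control dams were higher in the dam in every pair. The exceptions were Cyp4a8, Fer1l5, Hamp and Rhbg on the fetal side and Cdk2ap1, Ehhadh, Hgf, Ndufa1, Runx1 and Septin4 on the maternal side. None was opposite in all 12. These 12 pairs come from groups given different NBP2 doses, all above that of the controls. They were counted together, so an effect of dose on the direction was not tested. Most named genes were picked for a large difference in the control pairs. In the 6 control pairs at GD18, of study blocks 140 and 143, the counts were 49 of 59 and 76 of 81. There Fer1l5 and Hamp were higher in the dam, and Cdk2ap1 and Serpina6 higher in the fetus, in every pair. The GD18 pairs also enter the age comparison below. Some named genes were picked from it, Fer1l5, Cdk2ap1 and Serpina6 among them, and for those the GD18 pairs are no separate check. The share of all genes tested that kept direction in the dosed or GD18 pairs was not computed.

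Whether the fetal to maternal difference itself changed between GD18 (6 control pairs) and GD21 (3 control pairs) was tested as an interaction over 18 libraries with dam as a block. Of 13638 genes tested, 1159 (8.5%) changed, 905 (6.64%) toward the fetus and 254 (1.86%) toward the dam, with a median change of 0.39 over all genes. When that median was set to 0 the counts were 608 and 1024, so the balance between directions depends on the scaling, and changes are to be read against 0.39. The median also depends on the GD18 dams and the genes tested. It was 0.05 over 10197 genes with GD18 dams of block 143 only, and 0.33 over 13589 with those of block 140 only. Without dam 2129 the calls numbered 558, and without dam 2130 they numbered 488. The GD21 samples are all of study block 144 and the GD18 samples of blocks 140 and 143, so age and block cannot be told apart. Levels in the next paragraphs are scaled over the 18 libraries and differ slightly from those above. The GD21 control libraries enter both this test and the comparison above.

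**Figure D4:**
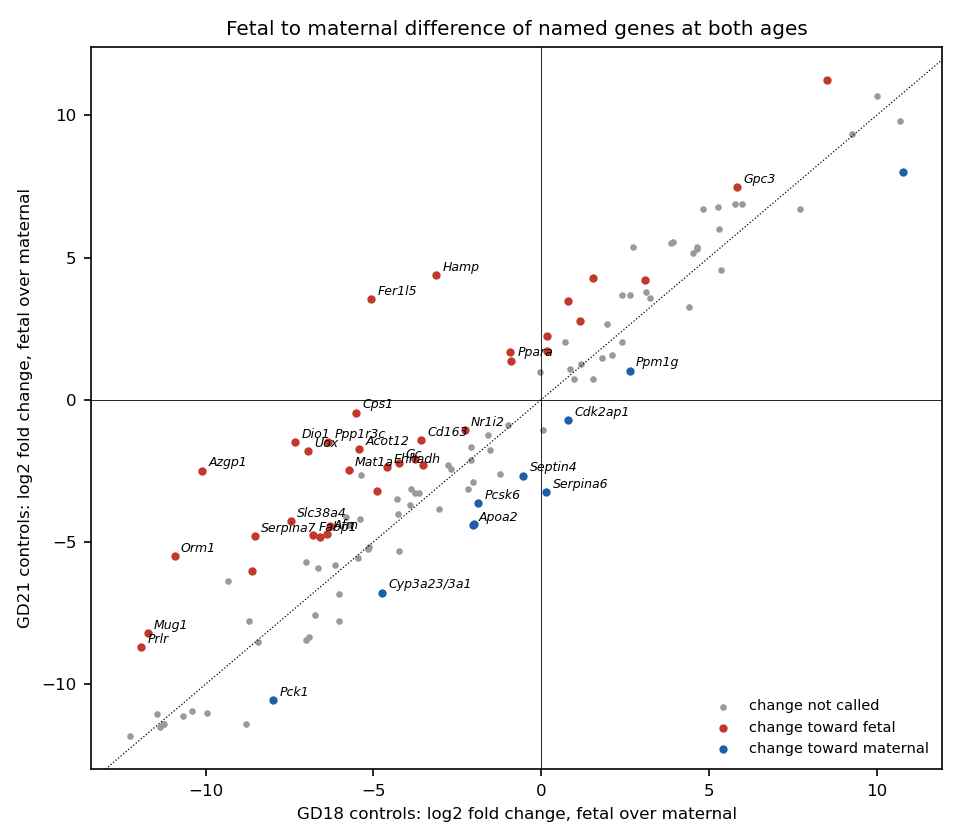
Fitted log2 fold change, fetal over maternal, of 123 named genes in GD18 (x axis) and GD21 controls (y axis). Left out were 22 genes tested at GD21 with 3 counts or fewer in a GD21 group. Mpo, which did not pass the filter at GD21 and had no count in the GD21 dams, is plotted. The dotted line marks equality; 36 genes called toward the fetus are red and 10 toward the dam blue, and Fer1l5 and Hamp lie below 0 at GD18 and above 0 at GD21.

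Among the named genes, several of adult liver function changed toward the fetus, being higher in fetal liver at GD21 than at GD18. Uox, urate oxidase, lay at 15.8 to 46.4 (median 19.9) CPM in GD18 fetal livers and 536 to 1323 (median 968) at GD21, while the dams lay at 2382 to 2854 (median 2758) and 3037 to 3148 (median 3130.2). The fetal ranges of the ages did not overlap, and the difference moved from −6.95 to −1.81, a change of 5.14 ± 0.38 (adjusted p 1.85e-06). Azgp1, a zinc-binding plasma protein, lay at 0.56 to 3.98 (median 0.994) CPM in fetal livers at GD18 and 234 to 738 (median 274) at GD21, with 1483 to 1716 (median 1642) and 1885 to 2122 (median 2052) in the dams (change 7.61 ± 0.56, adjusted p 1.85e-06). Ppp1r3c, which directs a phosphatase to glycogen, lay at 1.49 to 4.76 (median 3.47) and 63.5 to 119 (median 71.3) CPM in fetal livers (change 4.85 ± 0.32). Cps1 lay at 0 to 0.386 (median 0.179) CPM in fetal livers at GD18 and 4.58 to 9.81 (median 7.96) at GD21, overlapping the GD21 dams at 8.48 to 10.6 (median 10.4) (change 5.06 ± 0.55, adjusted p 4.49e-05). Similar changes were called for Mat1a (3.25 ± 0.27), the acetyl-CoA hydrolase Acot12 (3.69 ± 0.28), Gc (2.03 ± 0.26), Afm (1.67 ± 0.28) and Fabp1 (2.04 ± 0.25), for each of which the fetal livers of the 2 ages did not overlap. All of these stayed below the dams at GD21 on average.

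By list, 28 of 44 genes of urea formation and amino acid breakdown changed toward the fetus and none toward the dam, as did 17 of 24 acute phase, 16 of 27 coagulation and 14 of 26 conjugation genes. Plasma carriers gave 12 of 16 toward the fetus and 1 toward the dam, and gluconeogenesis and glycogen 13 of 20 and 1. Their median changes were 1.78, 2.50, 1.29, 1.56, 1.66 and 2.20, against 0.39 for all genes. Over all genes tested 6.64% changed toward the fetus and 1.86% toward the dam. No DNA replication gene of 30 and no oxidative phosphorylation gene of 28 was called, and in the erythroid list 1 of 35 was called, toward the dam. Lists of this size hold too few genes to set such counts apart from those shares, and no absence of change is shown. Of 34 mitosis genes 5 changed toward the fetus and none toward the dam (median 1.66). A change toward the fetus can also come from lower values in the dams. Kif23 and Kif4a, both called, had mean fetal levels of 83.6 and 53.9 CPM at GD18 and 76.6 and 42.3 at GD21. In the dams they read 2.57 and 3.27 CPM on average at GD18 and 0 at GD21. Their changes are thus fitted against a 0 and are no bound. Among 23 granulocyte genes 10 changed toward the fetus (median 2.71). Ctsg and Ms4a3, both called, read 0.367 and 1.63 CPM on average in the dams at GD18 and 0 at GD21. Their fetal means were 13.8 and 16.9 CPM at GD18 and 58.5 and 40.9 at GD21. Such changes are likewise fitted against a 0, and the median includes them.

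For a few genes the sign of the mean difference turned between the ages. Fer1l5, a ferlin, lay at 0 to 0.411 (median 0.152) CPM in fetal and 5.76 to 6.91 (median 6.68) in maternal liver at GD18, and at 52.4 to 96.5 (median 55.05) and 3.83 to 10.6 (median 3.83) at GD21, a change of 8.61 ± 0.63 (adjusted p 1.85e-06). Hamp lay at 0.772 to 5.62 (median 3.37) CPM in fetal and 7.51 to 67.3 (median 22.8) in maternal liver at GD18, the dam higher in 6 of 6 pairs, and at 9.0 to 104 (median 73.3) and 0 to 14.3 (median 0.451) at GD21 (change 7.51 ± 0.84, adjusted p 5.39e-05). At GD21 every fetal value of Hamp lay above the GD18 fetal range, and the median of the dams was lower than at GD18. Ppara lay at 4.21 to 10.8 (median 8.35) in fetal and 9.72 to 21.6 (median 14.5) in maternal liver at GD18, and at 17.1 to 79.4 (median 62.4) and 15.3 to 20.1 (median 16.7) at GD21, with the fetus higher in 2 of the 6 pairs at GD18 (change 2.26 ± 0.48, adjusted p 0.0085); the call was lost without dam 2129 or dam 2130. Dio1, the deiodinase that activates thyroxine, came near the dams at GD21, with 0 to 1.65 (median 0.0643) CPM in fetal livers at GD18 and 14.1 to 75.1 (median 28.2) at GD21, against 66.4 to 117 (median 85.6) in GD21 dams (change 5.84 ± 0.80, adjusted p 0.000307).

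Of the genes whose change was toward the dam, Serpina6 lay at 1157 to 1742 (median 1314) CPM in fetal and 1077 to 1497 (median 1223) in maternal liver at GD18, a difference of 0.16, and at 165 to 281 (median 176) and 1758 to 2070.1 (median 1906) at GD21 (change −3.41 ± 0.27, adjusted p 2.88e-06). Apoa2, a protein of high-density lipoprotein, lay at 2085 to 3552 (median 2892) and 726 to 1170.2 (median 872) CPM in fetal livers at the 2 ages, and at 9435 to 14664 (median 11156) and 17181 to 20752 (median 19799.6) in the dams (change −2.38 ± 0.31). For both genes the fetal livers were lower and the dams higher at GD21. Cdk2ap1, an inhibitor of a cell cycle kinase, went from 0.80 to −0.72 (change −1.52 ± 0.22). Its difference at GD21 alone was −0.21 with scaling to total counts (adjusted p 0.457) and −0.57 without dam 2130 (adjusted p 0.267). Afp and Alb were not called by this test, at 0.09 ± 0.35 (adjusted p 0.905) and 0.26 ± 0.44 (adjusted p 0.741), nor were Igf2 (0.69 ± 0.50, adjusted p 0.413) or Mki67 (1.10 ± 0.39, adjusted p 0.0959); this does not show that their differences were the same at both ages.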

How the data were processed

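Liver RNA was measured by TempO-Seq. The authors deposited estimated counts per gene (20833 genes), not normalised, and a table of log2 values, which was not used for the tests. The submitters' processing notes name STAR 2.7.3a, Partek and the build rn6. Of the estimated counts in these 6 libraries 6.7%, over 2534 genes, are not whole, and values were rounded. The sources used here do not give how counts were split over near-identical genes. Genes were filtered with filterByExpr, scaled with TMM factors and tested with edgeR 4.0.16 in R 4.3.3 (quasi-likelihood F test, two-sided, Benjamini-Hochberg, threshold 0.05, prior count 0.125) with dam as a block, which leaves 2 residual degrees of freedom per gene beside 7.65 from the prior. The SE is the fold change over the square root of F. A floor of 3 counts over a group bounds the fold of genes at 0, and other intervals are exact at 95%. Both cover counting error only, since no molecular identifiers are described. Only the fit at GD21 was tried on simulated data, with far fewer and smaller changes than were found here. The age comparison, the bounds and the promoter search were not simulated.

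Fetus and dam share a number because the labels tie both to 1 dam. Across genes, residuals of fetus and own dam correlated at −0.026, 0.158 and 0.127, and of fetus and other dams at −0.164 to 0.086. Libraries of 1 group differed far beyond counting noise, with a chi-square of 27.5 to 132.8 for each degree of freedom over genes with a summed count of at least 20.

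The members, 48 gene lists (30 of biology, 18 of markers, 997 of 1174 genes in the file) and the rule for named genes were chosen with earlier results of these data known. The rule took 12 genes per direction by size (mean log2 CPM at least 4, groups apart), up to 3 called genes per list (mean log2 CPM at least 2), a fixed set, and 6 per direction of the age comparison. Some genes picked by it are not reported here. Of the other 147, Cyp7a1, Mpo and Nr1i3 did not pass the filter. Promoters came from RefSeq (GRCr8). Alternatives were RLE factors, total counts, TMM without haemoglobin genes, no filter, DESeq2 1.42.0, no block, glmTreat (limma 3.58.1 was loaded with edgeR), all 30 GD21 libraries, and each dam left out with its fetus. Setting the median difference between ages to 0 and total counts for that comparison were added after the data were seen.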

Additional observations from a re-analysis of the deposited data

Results flagged for a closer look

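Among the 42 genes that were fixed by name or picked from the age comparison, there were 25 for which the difference between fetal and maternal control liver itself differed between GD18 and GD21 by the interaction test, with age and study block inseparable. Toward the fetus were Fer1l5 (change 8.61 on the log2 scale), Azgp1 (7.61), Hamp (7.51), Dio1 (5.84), Uox (5.14), Cps1 (5.06), Ppp1r3c (4.85), Acot12 (3.69), Mat1a (3.25), Ppara (2.26), Ehhadh (2.21), Cd163 (2.15), Fabp1 (2.04), Gc (2.03), Afm (1.67), Gpc3 (1.64) and Nr1i2 (1.21). Toward the dam were Serpina6 (−3.41), Pck1 (−2.56), Apoa2 (−2.38), Septin4 (−2.14), Cyp3a23/3a1 (−2.03), Pcsk6 (−1.76), Ppm1g (−1.62) and Cdk2ap1 (−1.52). Over all named genes the change was called for 56. Among all genes tested it was called for 1159 of 13638 (8.5%), with a median change of 0.39. Most named genes were picked for a large difference at GD21, so the counts of 25 and 56 are descriptions too. Of the 25 genes 11 were named because their change was called with the smallest adjusted p, so their size here is a description. Gpc3 lost the call under 13 of 17 other settings and Pck1 under 9. Ehhadh, Nr1i2 and Ppara lost it without dam 2129 or dam 2130 and their fetuses. No outlier test was run on groups of 3 libraries.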

How the results depend on the processing

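Of 1583 values of named genes at GD21 under other settings, 1524 kept direction and call and 4 reversed: Acot1, at −0.55 with no replicate block and −0.50 to −0.24 with a dam left out, and Cps1, at 0.0525 with total count scaling. The call was lost for 48 values, 15 of them with a tested fold of 2 and 13 without dam 2130. With no replicate block 4646 genes were called, 2557 higher in the fetus and 2089 in the dam, against 4641, 2474 and 2167 with it; Dio1, Ldha and Scd2 lost their call. RLE factors gave 2389 and 2236, TMM without haemoglobin genes 2413 and 2214, DESeq2 2114 and 2064, no filter 2662 and 2414, and all 30 GD21 libraries 2526 and 2157. Total count scaling gave 3809 and 1372. A tested fold of 2 gave 2320 calls, 1270 and 1050. Leaving out a dam with its fetus gave 2841 to 5364 calls, 1528 to 2827 in the fetus and 1313 to 2537 in the dam, fewest without dam 2130.

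In the age comparison the calls toward the dam, 254 with all libraries, were 673 with DESeq2, 151 with total count scaling and 1024 with the median difference set to 0. Leaving out a dam gave 488 to 1437 calls, 448 to 1066 toward the fetus and 39 to 371 toward the dam. Of 707 values of named genes 645 kept direction and call. Values with the other sign were −0.00898 (RLE), −0.0088 (DESeq2), −0.00653 (block 140 alone), −0.292 (median at 0) and −0.351 to 0.552 (a dam left out) for Afp; −0.497 (block 140), −0.12 (median at 0) and −0.0963 to 0.695 (a dam left out) for Alb; −0.0355 (RLE), −0.0384 (DESeq2), −0.0907 (block 143), −0.0104 (block 140), −0.314 (median at 0) and −0.663 to 0.64 (a dam left out) for Krt19; and −1.51 to 5.26 (a dam left out) for Acot1. With block 143 alone at GD18 Cyp1a2 gave 0.498 and Tat 3.28, and with block 140 alone Thrsp gave −0.358. None of these values was called. The cause of these shifts was not tested. Genes under the filter were not tested at this depth.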
